A study of Capra hircus with 29 samples.

Results

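The share of RNA signal from mitochondrial genes varied widely among the goat oocyte samples, and the 10 samples with the highest share were compared with the 10 samples with the lowest share, out of 29 labelled samples. The share of a sample was the summed FPKM (fragments counted on a gene, scaled for its length and for the sequencing yield of the sample) of the 13 protein genes encoded by mitochondrial DNA, divided by the summed FPKM of all 21343 genes in the table. The samples were thus chosen by this share: the 10 highest are called rich and the 10 lowest poor, and the 9 samples in between entered the main comparison on neither side. Because the 13 genes chose the samples, their values are described here without a test, and every test was run on the other genes.

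All oocytes came from Ji'ning grey goats, a breed kept for its fecundity, with no treatment and no age given. By the labels the high fertility population (H) bore more than 3 kids at a birth and the low fertility population (L) fewer than 2, while the study's methods count litters of exactly 3 and 2 in as well. Oocytes were taken from large, medium or small follicles (second letter L, M or S), and polyadenylated RNA was enriched with oligo(dT) beads before sequencing. Per the study's methods, oocytes of 1 follicle size were pooled over goats (stated for the high fertility population) and then divided into samples of a few oocytes, so the numbered samples of a group are not separate animals, and p-values measure only the spread between these samples, which may be technical. The groups held 5 samples each of HLO, HMO, LLO, LMO and LSO and 4 of HSO (O, oocyte).

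Mitochondrial DNA codes for core subunits of the respiratory chain, namely subunits of complex I (ND genes), cytochrome b of complex III (CYTB), subunits of cytochrome c oxidase (COX genes) and of ATP synthase (ATP genes). All other proteins of the mitochondrion, the ribosomal proteins, RNA polymerase and transcription factors that serve its genome included, are encoded in the nucleus. The oocyte stores a large number of mitochondria, which the embryo inherits and divides among its cells.

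In the rich samples the 13 genes held from 0.188% to 1.37% of summed FPKM, with a median of 0.442%. In the poor samples they held from 0.00266% to 0.0771%, with a median of 0.0425%, so the median shares differed 10.4-fold by choice of the samples. HSO 3 had the highest share, followed by LMO 3 with 1.10% and LSO 3 with 0.967%, whereas LLO 4 had the lowest. The shares ran on without a step at the lower limit of the rich set, where LMO 1 was the last sample inside with 0.188% and LLO 2 the first outside with 0.141%. At the upper limit of the poor set, LLO 1 was inside with 0.0771% and HLO 2 outside with 0.0813%. Each sample held the RNA of a few oocytes, so fewer oocytes with abundant mitochondrial RNA and less mitochondrial RNA per oocyte cannot be told apart.

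**Figure D1:**
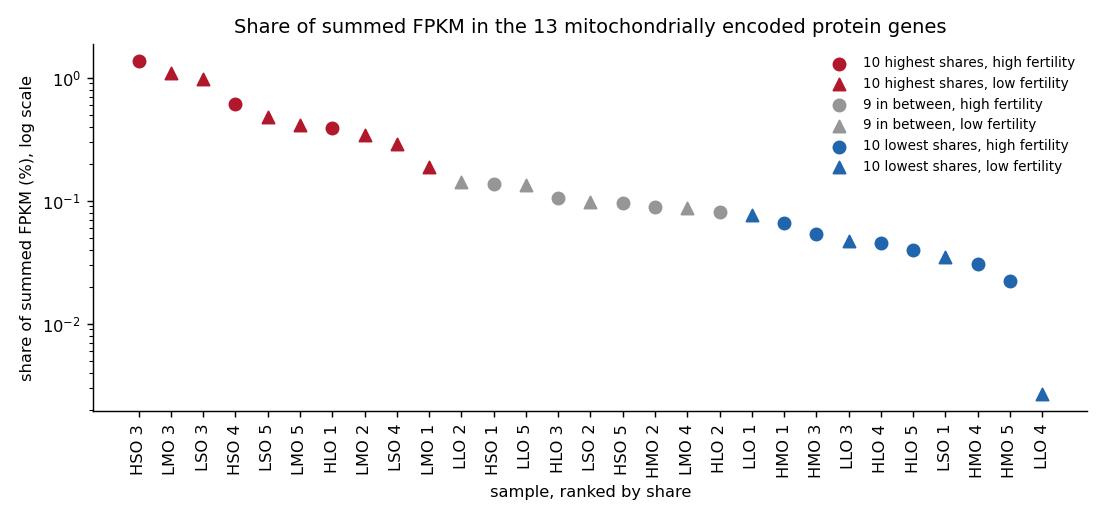
Share of summed FPKM in the 13 mitochondrially encoded protein genes (%, log scale) for each of the 29 samples, ranked from highest to lowest; colour gives the set and shape the fertility population. The rich samples span 0.188% to 1.37% and the poor samples 0.00266% to 0.0771%, with no gap at either limit.

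The sets were unequal in population and follicle size. The rich set held 3 high and 7 low fertility samples, and the poor set 6 high and 4 low fertility samples. Of the samples from small follicles 5 were rich and 1 was poor, of those from large follicles 1 was rich and 5 were poor. Medium follicles gave 4 samples to each set, but all 4 rich samples were LMO and all 4 poor samples HMO. The median share was 0.342% in LMO and 0.0538% in HMO, against 0.374% in HSO, 0.287% in LSO, 0.0813% in HLO and 0.0771% in LLO. Mitochondrial share therefore cannot be told apart from population among medium follicles, and it is unevenly spread over follicle sizes.

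The 4 genes that label the comparison followed the label. ND1 had 37.0 to 684 FPKM in rich samples (median 219) and 0.552 to 16.0 in poor samples (median 9.52). ND4 had 48.9 to 252 FPKM in rich samples (median 124) and 0.707 to 45.5 in poor samples (median 15.5). ATP6 had 39.4 to 1130 FPKM (median 322) against 1.24 to 21.2 (median 12.3). The sets did not overlap for these 3 genes, whereas COX3 overlapped, with 119 to 1585 FPKM in rich samples (median 446) and 2.95 to 148 in poor samples (median 49.0). Over all 13 genes the sets were apart for 6 and overlapped for 7.

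The 13 genes did not rise together by a common factor. In 9 of the 10 rich samples, which are the 9 highest of the series, 7 genes (ND1, COX2, ATP8, ATP6, ND5, ND6 and CYTB) exceeded every one of the other 20 samples. ATP8, a small subunit of ATP synthase, had 99.0 to 1322 FPKM in these 9 samples, and 0 to 7.58 FPKM in the other 20, of which 9 were listed at 0. ND6, a complex I subunit, had 9.77 to 133 FPKM in the 9 samples and 0.115 to 3.17 in the 20. By contrast, ND2 of complex I had 23.6 to 210 FPKM in the 9 samples and 0.967 to 151 in the 20, so that the ranges overlapped. The medians of the 9 and the 20 samples differed 192-fold for ATP8, 42.6-fold for ND6, 18-fold for ATP6, 13.6-fold for ND1 and 10.2-fold for CYTB. They differed 4.27-fold for ND4, 3.56-fold for COX1, 3.35-fold for COX3, 1.59-fold for ND2, 1.21-fold for ND3 and 1.09-fold for ND4L, all of which overlapped.

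**Figure D2:**
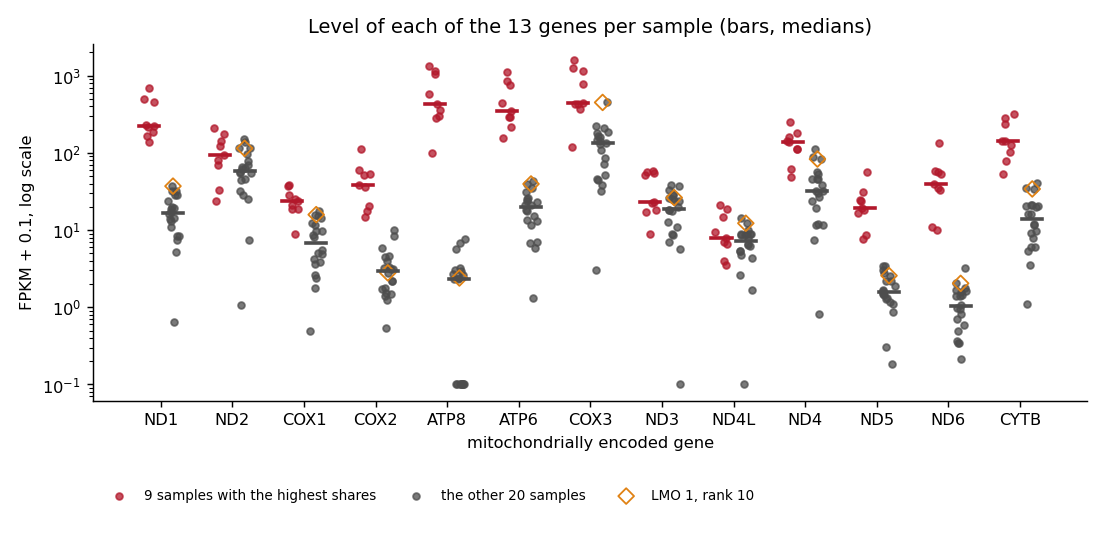
FPKM + 0.1 (log scale) of each of the 13 mitochondrially encoded genes in the 9 samples with the highest shares (red) and in the other 20 samples (grey), with bars at the medians and LMO 1, the tenth sample of the rich set, as an open diamond. ATP8 lies between 99.0 and 1322 FPKM in the 9 samples and at 7.58 FPKM or less in the other 20, while ND2, ND3 and ND4L overlap.

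The levels of COX3 relative to ATP6 and of ND1 relative to ND2 showed the same split. COX3 was 0.766 to 1.75 times ATP6 in the 9 samples and 2.39 to 11.4 times ATP6 in the other 20. ND1 was 1.52 to 7 times ND2 in the 9 samples and 0.136 to 1.003 times ND2 in the 20. Ranges overlapped for ATP8, which was 0.638 to 1.40 times ATP6 in the 9 samples and 0 to 2.10 times in the 20. They also overlapped for ND4, at 8.46 to 20.9 times ND4L in the 9 samples and 1.72 to 13.1 times in 19 of the 20. ATP8 made up 13% to 24.9% of the 13-gene sum in the 9 samples, against a median of 0.388% in the 20. LLO 4 was an exception among the 20, with ATP8 at 23.3% of a 13-gene sum of 11.2 FPKM. ATP8 and ATP6 overlap in the mitochondrial genome, ND4L and ND4 likewise, and ND6 lies on the opposite strand. How the counting split overlapping genes and whether it used strand are not given in the sources used here, so the values of these genes are uncertain.

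LMO 1 was rich by its sum but not by its profile. Its ATP8 stood at 2.29 FPKM, 0.280% of its 13-gene sum, and COX3 alone made up 54.8% of that sum, with 450 FPKM. Every other rich sample had ATP8 at 13% or more. The division into 9 and 20 samples was chosen after these values were seen, and results that depend on it are given beside the main ones.

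The samples were oocytes by their markers. The 8 oocyte markers summed to 1110 to 4940 FPKM in rich samples (median 2634) and 816 to 4635 in poor samples (median 2754). The zona pellucida protein gene ZP3 had 521 to 2917 FPKM in rich samples (median 1574) and 404 to 3179 in poor samples (median 1332). GDF9, a growth factor secreted by the oocyte, had 31.9 to 696 FPKM (median 253) against 90.5 to 556 (median 351). The sets overlapped for both genes, and neither passed the test, with log2 fold changes of 0.10 for ZP3 and -0.31 for GDF9. That of GDF9 ran from -0.49 to 0.01 with each sample left out. The leukocyte markers summed to 0.661 FPKM or less in all 20 samples and the erythrocyte marker ALAS2 to 0.391 FPKM or less.

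Of the 13 granulosa cell markers 11 were in the table, and they summed to 27.3 to 53.1 FPKM in rich samples (median 35.5) and to 9.91 to 43.8 in poor samples (median 25.6). AMH, a defining granulosa marker, was listed at 0 in all 29 samples, and CYP19A1 and FSHR stayed at 0.283 FPKM or less in both sets. SERPINE2 was present in all 29, with 3.23 to 18.5 FPKM in rich samples (median 10.5) and 3.84 to 16.5 in poor samples (median 9.71). INHBA reached 5.21 FPKM, GJA1 4.23 and FST 1.54 in rich samples, and 2.27, 3.17 and 1.005 FPKM in poor samples. Their rich and poor medians were 0.419 and 0.266 FPKM for INHBA, 0.527 and 0.819 for GJA1, and 0.0374 and 0.138 for FST. STAR, which carries cholesterol into mitochondria for steroid synthesis, made up most of the sum, with 10.4 to 39.0 FPKM in rich samples (median 24.9) and 4.32 to 26.5 in poor samples (median 13.7). The log2 fold change of STAR was 0.89 (adjusted p = 0.691, limma), so that it did not pass the test. The 7 theca and stroma markers in the table summed to 5.20 to 14.4 FPKM in rich samples (median 11.03) and 2.95 to 19.2 in poor samples (median 6.19). Among them COL1A2, a collagen gene, had medians of 2.05 and 1.26 FPKM and a log2 fold change of 0.52 (adjusted p = 0.691, limma). The part of the somatic markers in the results was not tested.

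No tested property of the whole libraries differed between the sets at an adjusted p under 0.05. Rich samples had 7855 ± 549 genes over 0.5 FPKM and poor samples 7901 ± 618 (SD, n = 10 each; two-sided permutation test, p = 0.857). The 100 highest genes held 51.0 ± 7.39% of FPKM in rich and 50.9 ± 7.87% in poor samples (SD, n = 10 each; permutation p = 0.977). The first principal component of the other genes took 44.8% of the variance and the second 19.3%, and the scores of the sets gave permutation p = 0.577 and p = 0.181 (n = 10 each). Scores on the second component were 9.25 ± 18.2 in rich and -9.25 ± 37.0 in poor samples (SD). After Benjamini-Hochberg adjustment over these 4 measures the smallest permutation p was 0.722. The sum of FPKM over all genes was 222697 to 440665 in rich and 350806 to 490048 in poor samples. LMO 2 alone gave the low end, and the other rich samples had 411855 or more. The highest rich values of AXIN2, DNAJB1, HSPH1, BMP15, BMP6, BNC1, MFN2, PTCD3 and TK2, given further on, were also those of LMO 2. FPKM values do not give the sequencing depth. The study's supplement lists sequence counts and mapping information, which were not used here.

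In the other genes, rich samples were about as like poor samples as like each other, given as a description over pairs that share samples. Across the 9337 tested genes, the median Spearman correlation was 0.880 over the 45 pairs of rich samples, 0.849 over the 45 poor pairs and 0.868 over the 100 mixed pairs. The closest of all other samples was rich for 4 rich samples (HSO 3, LMO 3, LSO 5 and LMO 5), in between for 4 and poor for 2. Apart from HSO 4 and LSO 4, each rich sample was closest to a sample that carried its own number. LSO 3 was closest to the poor sample HMO 3 (0.939), although their shares were 0.967% and 0.0538%. LSO 4 was closest to the poor sample HMO 5 (0.953), with shares of 0.287% and 0.0222%.

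No other gene passed the test between rich and poor samples. Of 9337 genes over 0.5 FPKM in at least 4 of the 20 samples, 0 (0%) had an adjusted p under 0.05 in limma on log2(FPKM + 1), and the smallest adjusted p was 0.317. At an unadjusted p under 0.05 there were 546 genes (5.85%), of which 316 (3.38%) were higher and 230 (2.46%) lower in rich samples. The exact Wilcoxon rank-sum test also gave 0 genes at an adjusted p under 0.05 (smallest 0.101), and 413 higher and 133 lower at an unadjusted p under 0.05. The median log2 fold change over all genes was -0.01. Fold changes on this scale understate the change of genes with low FPKM. With follicle size and fertility as covariates, and among the 11 low fertility samples of the 20 alone, 0 genes passed as well. Among the 9 high fertility samples alone 3 did, ENSCHIG00000017581, LVRN and GRIA1. The genes described next are therefore given by their values, as the most different ones and not as calls.

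The smallest adjusted p among genes higher in rich samples belonged to ENSCHIG00000017581, a gene with no symbol in the table, and LVRN, both named after their values were seen. ENSCHIG00000017581 was over 0.5 FPKM in 9 rich and 6 poor samples. It had 14.95 to 54.7 FPKM in the 9 highest samples and was listed at 0 in LMO 1. In the other 19 samples it reached 26.6 FPKM in LLO 1 and 10.5 in LMO 4, and 2.43 or less in all others. Its log2 fold change between rich and poor samples was 3.10 with a standard error of 0.64 (adjusted p = 0.317, limma). The adjusted p of ENSCHIG00000017581 came to 0.00349 without LMO 1 and to 0.0228 without LLO 1, and these samples thus decide its call.

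LVRN codes for laeverin, an aminopeptidase described from placental trophoblast. It was over 0.5 FPKM in 9 rich and 2 poor samples, so it passed the filter on low values through the rich samples and its values in this comparison are a description. It had 0.362 to 3.64 FPKM in rich samples (median 1.61) and 0.0869 to 0.797 in poor samples (median 0.275). The 10 rich values were all above the poor median, although the lowest of them, LMO 1, lay inside the poor range. The log2 fold change of LVRN was 0.92 with a standard error of 0.18.

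With the 9 highest samples set against all other 20, 2 of 9679 genes (0.0207%) were higher at an adjusted p under 0.05 and 0 lower, namely the same pair. ENSCHIG00000017581 had a log2 fold change of 3.86 with a standard error of 0.44 (adjusted p = 6.18e-06, limma), and LVRN 0.96 with a standard error of 0.14 (adjusted p = 4.22e-04, limma). Leaving out each of the 29 samples in turn kept both calls, with an adjusted p of at most 4.02e-05 for ENSCHIG00000017581 and 0.00234 for LVRN. LVRN in the 9 samples ranged from 0.585 to 3.64 FPKM, 4 of the 20 others exceeded the lowest of them, and 5 of the 20 were over 0.5 FPKM. In ENSCHIG00000017581 only LLO 1 did.

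**Figure D3:**
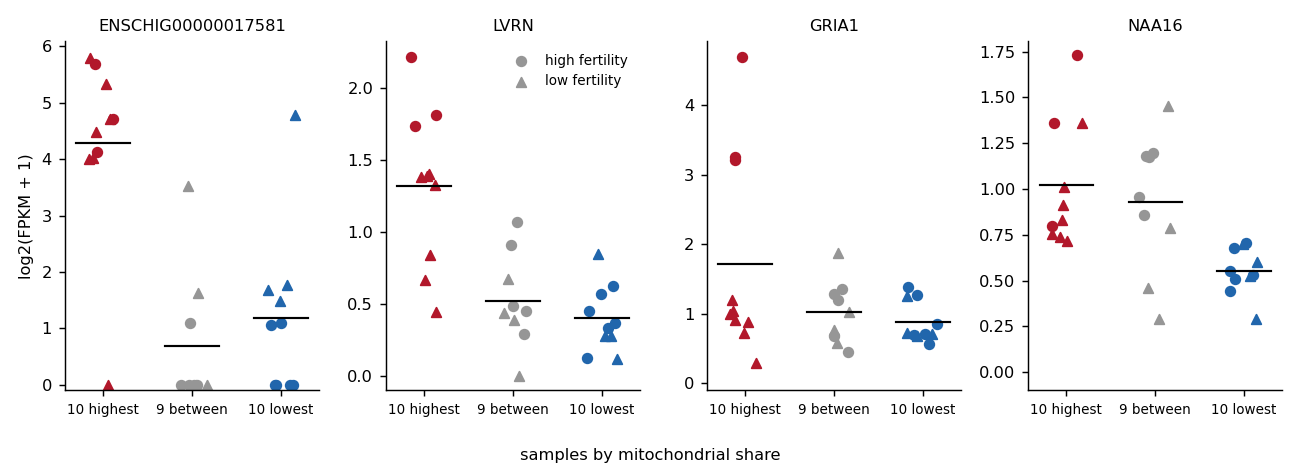
log2(FPKM + 1) of ENSCHIG00000017581, LVRN, GRIA1 and NAA16 in the 10 highest, 9 in-between and 10 lowest samples by mitochondrial share, with circles for high and triangles for low fertility and bars at the means. ENSCHIG00000017581 is listed at 0 in 1 rich sample, and GRIA1 stands at 8.31 FPKM or more in the 3 rich samples of high fertility alone.

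NAA16 was the one gene of the 9337 (0.0107%) whose sets did not overlap, and it was named for this after its values were seen. NAA16 is an auxiliary subunit of an N-terminal acetyltransferase. It had 0.640 to 2.33 FPKM in rich samples (median 0.829) and 0.222 to 0.627 in poor samples (median 0.454). Its log2 fold change was 0.47 with a standard error of 0.13 (adjusted p = 0.691, limma). In the 9 samples in between NAA16 had 0.220 to 1.74 FPKM (median 0.938), a range that covered most of both sets.

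The interaction of rich against poor with fertility population was called for 1 of 9337 genes (0.0107%). Among high fertility samples the rich set held 2 HSO and 1 HLO, and the poor set 4 HMO and 2 HLO. The model had no term for follicle size, so population and follicle size cannot be told apart in this interaction. GRIA1, a subunit of the AMPA-type glutamate receptor named after its values were seen, had 25.0 FPKM in HSO 3, 8.56 in HSO 4 and 8.31 in HLO 1, which are the 3 rich samples of high fertility. In the 7 rich samples of low fertility it had 0.228 to 1.29 FPKM, in the 6 poor samples of high fertility 0.474 to 1.62, and in the 4 poor samples of low fertility 0.609 to 1.39. The 9 samples in between had 0.372 to 2.67 FPKM, so the 3 samples stood apart from the other 26. The interaction term was 2.79 on the log2 scale with a standard error of 0.40 (adjusted p = 0.00823, limma). With each of the 20 samples left out in turn the adjusted p of GRIA1 stayed between 0.00621 and 0.0308. Over both populations together the log2 fold change of GRIA1 was 0.84 with a standard error of 0.43 (adjusted p = 0.874, limma).

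Named genes that were higher in rich samples by more than 1 on the log2 scale came to 9, none of them called. AXIN2, a negative regulator of WNT signalling, had 2.63 to 13.3 FPKM in rich samples (median 6.37) and 1.37 to 5.97 in poor samples (median 2.45). All 10 rich samples were above the poor median, and the log2 fold change of AXIN2 was 1.02 ± 0.24 (SE; adjusted p = 0.652, limma). PNP, a purine salvage enzyme, had 0.363 to 22.9 FPKM (median 2.87) against 0.0669 to 3.25 (median 1.19). YEATS4, a reader of histone acetylation, had 5.88 to 35.0 FPKM (median 25.8) against 3.71 to 35.6 (median 6.42). GPHA2, a glycoprotein hormone subunit, had 0.537 to 16.1 FPKM (median 4.75) against 0 to 6.30 (median 0.869). The sets overlapped for each of these, and the adjusted p was 0.827 for PNP and 0.846 for YEATS4 and GPHA2. CLRN2 (log2 fold change 1.10) and GCSAML (1.08) had adjusted p of 0.691 and 0.791 in limma, but GCSAML was over 0.5 FPKM in 9 rich and 3 poor samples and passed the filter through the rich ones. For FAM227B, COQ5, a methyltransferase of coenzyme Q synthesis, and the metallothionein MT3, the log2 fold changes of 1.14, 1.04 and 1.11 had unadjusted p of 0.0834, 0.147 and 0.230 in limma. Without the 8 samples described next, the log2 fold change was 0.04 for COQ5, 0.34 for FAM227B, -0.28 for MT3, 0.50 for YEATS4 and 0.59 for CLRN2. It was 0.79 for AXIN2, 0.81 for GPHA2, 1.03 for GCSAML and 1.25 for PNP.

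A group of 8 samples stood apart from the other 21 in HSD17B2 and other genes. HSD17B2, which inactivates estradiol and testosterone, had 7.44 to 41.7 FPKM in LSO 3, LSO 4, HMO 1, HMO 3, HMO 4, HMO 5, LSO 1 and LLO 4, and 0.143 FPKM or less in the other 21 samples. Of these 8 samples 6 were poor, 2 were rich and 0 were in between. HSD17B2 was named, and its limit of 1 FPKM set, after its values were seen. Of the 9337 genes 145 (1.55%) were higher in every one of the 8 samples than in every other sample, and 1 was lower. Since 6 of the 8 samples were poor, this choice all but fixes the direction of the 145 genes between rich and poor samples. They made up 61 of the 230 genes lower in rich samples at an unadjusted p under 0.05. Of the 48 genes lower in rich samples by more than 1 on the log2 scale at an unadjusted p under 0.05, 25 were among the 145, and 15 of these 25 were still below 0 without the 8 samples.

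ATP5G2, subunit c of ATP synthase, was among the 145. It had 15.1 FPKM in LSO 3 and 44.2 in LSO 4 among rich samples, and 1.80 FPKM or less in the other 8 rich samples. Among poor samples it had 20.8 to 90.1 FPKM in 6 and 0.382 to 1.90 in 4. The log2 fold change of ATP5G2 was -1.89 ± 0.82 (SE; adjusted p = 0.846, limma), and without the 8 samples it was -0.05. MRPL18, a protein of the mitochondrial ribosome, had 84.7 to 562 FPKM in the 8 samples and 8.89 or less in the other 21, and its log2 fold change went from -2.19 to -0.08 without them. MITD1, a factor of the last step of cell division, had 14.4 to 30.4 FPKM in the 8 samples and 10.3 or less in the others, with log2 fold changes of -1.10 and -0.27. Other rows carry the symbols ATP5G2 and MRPL18 too, so reads may have been split among copies and the values are uncertain. A further tested row had medians of 67.3 and 51.7 FPKM in rich and poor samples for ATP5G2, and of 104 and 97.4 FPKM for MRPL18. The symbols NDUFA3, GLRX, DNAJB1, HSPA8, RPL9 and ASNS, used further on, are likewise carried by several rows.

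**Figure D4:**
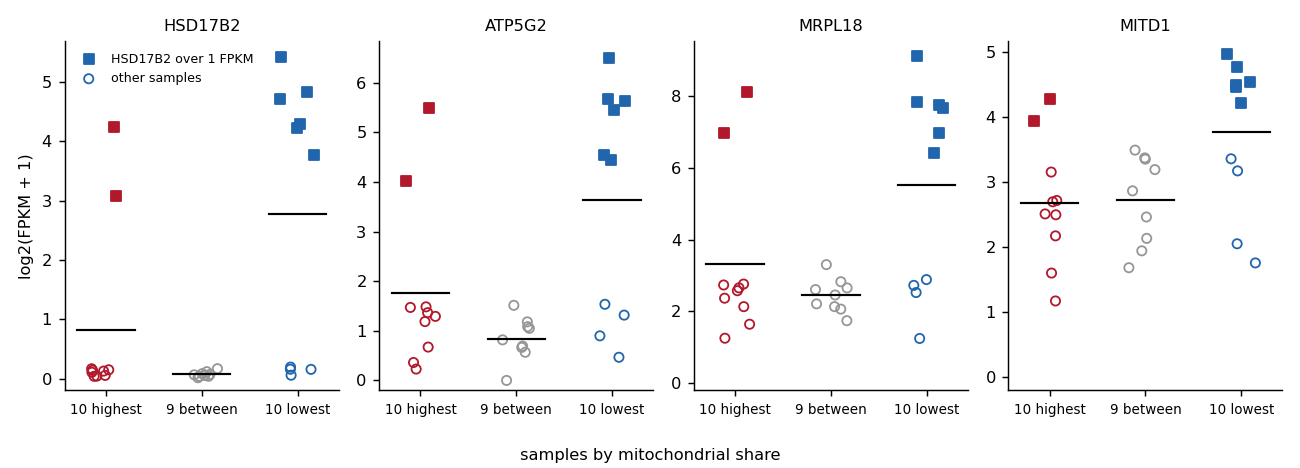
log2(FPKM + 1) of HSD17B2, ATP5G2, MRPL18 and MITD1 in the 10 highest, 9 in-between and 10 lowest samples by mitochondrial share; filled squares are the 8 samples with HSD17B2 over 1 FPKM, open circles the other 21, and bars the set means. The 6 poor and 2 rich squares lie above all circles in each panel.

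With the 8 samples left out, 8 rich and 4 poor samples remained. Then 217 genes were higher and 48 lower at an unadjusted p under 0.05, and 0 at an adjusted p under 0.05. Of the 23 genes lower by more than 1 that were not among the 145, 22 stayed below 0, while the median of all genes was 0.07. The 23 genes, like the 25 above, were chosen by their values in samples that include the remaining ones. Both counts are therefore descriptions.

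Among the 10 named genes lower by more than 1 on the log2 scale, HIST1H2AC, a histone H2A gene, had the smallest p. It had 0 to 2.19 FPKM in rich samples (median 1.29) and 0.994 to 10.2 in poor samples (median 3.71), and no rich sample exceeded the poor median. Its log2 fold change was -1.17 ± 0.29 (SE; adjusted p = 0.691, limma), and reads of near-identical histone genes may have been split by the counting. GMFG, a regulator of actin branching, had 0.745 to 16.4 FPKM (median 1.73) in rich and 1.06 to 21.7 (median 8.21) in poor samples. DYNLT1, a dynein light chain, had 0 to 7.83 FPKM (median 0.503) against 1.04 to 13.5 (median 4.30). FGF12 had 0 to 2.50 FPKM (median 0.246) against 0 to 6.54 (median 2.42). It passed the filter on low values through the poor samples, so its values are a description. For these 3 genes 1 rich sample exceeded the poor median, and the adjusted p of GMFG and DYNLT1 was 0.691 in limma. The log2 fold changes of HIST1H2AC, GMFG, DYNLT1 and FGF12 were -1.17, -1.52, -1.37 and -1.12, and -0.66, -0.75, -0.81 and -0.34 without the 8 samples.

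MB, the oxygen-binding protein myoglobin, had 4.71 to 41.6 FPKM in rich samples (median 13.5) and 6.69 to 64.7 in poor samples (median 33.7). CA9, a carbonic anhydrase known as a target of hypoxia signalling, had 1.07 to 25.3 FPKM (median 7.30) against 2.25 to 52.9 (median 25.4). MITD1 had 1.26 to 18.4 FPKM (median 5.10) against 2.38 to 30.4 (median 19.4). The log2 fold changes of MB and CA9 were -1.15 and -1.39, and -0.57 and -0.32 without the 8 samples. DRAM1, a lysosomal protein of autophagy, and CALML4, a calmodulin-like protein, had log2 fold changes of -1.02 and -1.12, and -0.38 and -0.35 without them.

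FABP1, a fatty acid binding protein of liver and intestine, was named after its values were seen. It was listed at 0 in 8 of 10 rich samples, with 1.14 FPKM in LSO 4 and 0.223 in LMO 5, and it had 0 to 1.44 FPKM in poor samples (median 0.786). It was over 0.5 FPKM in 1 rich and 7 poor samples, so it passed the filter on low values through the poor samples and its values are a description. The log2 fold change of FABP1 was -0.62, and -0.36 without the 8 samples. Of the 6 enterocyte markers in the table, FABP1 was the one above 0.5 FPKM in any sample, and APOA4 and FABP2 were listed at 0 in all 29.

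No gene that acts on mitochondrial DNA or its transcripts passed the test. Of 25 tested genes of mitochondrial transcription and RNA processing, 0 had an adjusted p under 0.05 and 1 was higher at an unadjusted p under 0.05. That gene was PTCD3, which acts in mitochondrial translation, with 0.748 to 2.89 FPKM in rich samples (median 1.55) and 0.623 to 1.30 in poor samples (median 1.06; log2 fold change 0.41, adjusted p = 0.691, limma). TFAM, which packages mitochondrial DNA and starts its transcription, had 0.898 to 5.52 FPKM (median 4.18) against 0.714 to 4.36 (median 2.04). Its log2 fold change was 0.49 ± 0.27 (SE; adjusted p = 0.925, limma). TFB1M, a methyltransferase of mitochondrial ribosomal RNA, had 6.17 to 140 FPKM (median 67.8) against 19.8 to 149 (median 92.7), a log2 fold change of -0.68 ± 0.51 (SE; adjusted p = 0.981, limma). The median log2 fold change of the 25 genes was -0.01, the same as over all genes, and 0.06 with an equal sum of the other genes, where all genes had 0.06.

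Of 15 tested genes of mitochondrial DNA upkeep, 1 was higher at an unadjusted p under 0.05 and the median log2 fold change was -0.05, which was 0.03 with an equal sum of the other genes and 0.02 with quantile normalization. TK2, the mitochondrial thymidine kinase, had 0.302 to 2.06 FPKM in rich samples (median 0.730) and 0 to 1.37 in poor samples (median 0.328; log2 fold change 0.38, adjusted p = 0.846, limma). PRIMPOL, a primase-polymerase, had 6.86 to 20.8 FPKM (median 12.98) against 4.54 to 22.0 (median 6.55). All 10 rich samples exceeded its poor median, and the log2 fold change was 0.54 (adjusted p = 0.885, limma). Of 24 genes of mitochondrial biogenesis, fission and fusion 0 had an unadjusted p under 0.05. MFN2, a mitofusin, had 1.94 to 23.3 FPKM (median 5.09) against 1.15 to 10.1 (median 2.59), and FIS1, a fission factor, 22.9 to 202 (median 159) against 76.2 to 289 (median 182). The tricarboxylic acid cycle genes (24 tested) and mitochondrial chaperones and proteases (16 tested) also had 0 members at an unadjusted p under 0.05.

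The nuclear subunits that assemble with the mitochondrially encoded ones lay mostly below 0, none of them past the test. Of 76 tested nuclear respiratory chain and ATP synthase genes 24 had a log2 fold change above 0 (31.6%, against 47.7% of all genes), the median was -0.12, and 1 was higher and 2 lower at an unadjusted p under 0.05. The lower ones were ATP5G2 and NDUFA3, an accessory subunit of complex I with 0 to 2.21 FPKM (median 0.480) against 0 to 3.82 (median 1.59). Of 73 mitochondrial ribosomal proteins 24 were above 0, the median was -0.13, and MRPL37 (log2 fold change 0.49) and MRPL18 were the members at an unadjusted p under 0.05. With an equal sum of the other genes the medians of both lists were -0.01 and -0.03, with a median of all genes of 0.06, and with quantile normalization that of the mitochondrial ribosomal proteins was above 0.

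Of 143 tested rows of cytosolic ribosomal proteins 1 was higher and 9 were lower at an unadjusted p under 0.05 (3.38% and 2.46% of all genes). Their median was -0.12 on the log2 scale. Among the 9 rows were those of RPL6, RPS15A, RPS10, RPL19, RPS6 (2 rows), RPL7 and RPS23, each of them a symbol that several rows carry, so that reads may have been split among copies. All of these but RPL6 were named after their values were seen. RPL19 had a median of 0.567 FPKM in rich and 27.5 in poor samples. RPL9 was the higher one, with 36.0 to 66.7 FPKM in rich samples (median 58.8) and 6.64 to 78.3 in poor samples (median 40.2), and its log2 fold change of 0.73 was -0.02 without the 8 samples. Of 49 proteasome genes PSMD5, an assembly chaperone, was higher at an unadjusted p under 0.05 (log2 fold change 0.64, and 0.10 without the 8 samples).

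Heat shock genes gave the list with the largest share (of the 18 lists) of members at an unadjusted p under 0.05. Of 13 tested immediate early and heat shock genes 4 were higher and 0 lower, 30.8% against 5.85% of all genes, and 0 had an adjusted p under 0.05. DNAJB1, a co-chaperone of HSP70, had 25.1 to 75.2 FPKM in rich samples (median 32.9) and 15.04 to 33.8 in poor samples (median 21.7). HSPH1, a nucleotide exchange factor of HSP70, had 4.07 to 6.69 FPKM (median 4.87) against 2.04 to 6.40 (median 2.97). All 10 rich samples exceeded the poor median for both genes. BAG3 and DUSP1 were named after their values were seen. BAG3, another co-chaperone of HSP70, had median levels of 13.9 and 6.36 FPKM, and the phosphatase gene DUSP1 of 1.09 and 0.713 FPKM. The log2 fold changes were 0.60 ± 0.21 for DNAJB1, 0.49 ± 0.18 for HSPH1, 0.99 ± 0.39 for BAG3 and 0.36 ± 0.15 for DUSP1 (SE), with adjusted p of 0.791, 0.817, 0.846 and 0.846 in limma. HSPA8 and HSPA1L of the same list had log2 fold changes of -0.50 and -0.39, which were 0.33 and 0.05 without the 8 samples. The list median was 0.17, and 0.04 with follicle size and fertility as covariates.

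**Figure D5:**
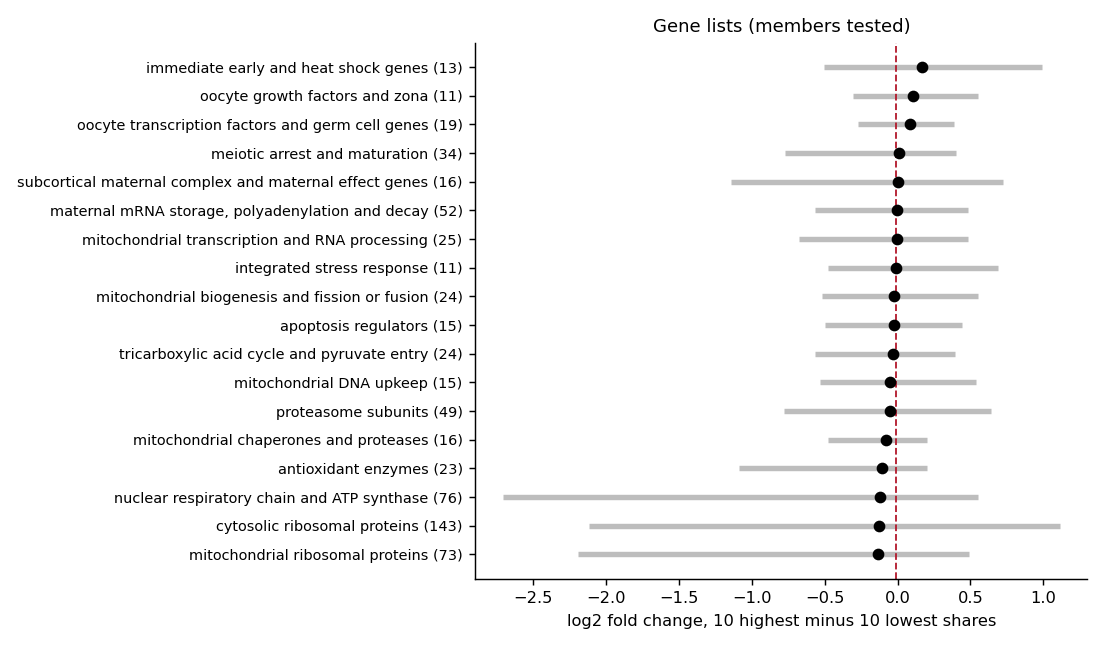
Log2 fold change between rich and poor samples for 18 gene lists: dots are the medians of the tested members (their number in parentheses), grey bars run from the lowest to the highest member, and the dashed line is the median of all 9337 genes at -0.01. List medians lie between -0.13 and 0.17, and no member of any list had an adjusted p under 0.05; 9 of the 18 medians change sign with an equal sum of the other genes.

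Of the oocyte genes none passed the test. Of 11 oocyte growth factor and zona genes 2 were higher at an unadjusted p under 0.05 (3.38% of all genes). Their median was 0.10, which was 0.04 with follicle size and fertility as covariates and 0.22 with an equal sum of the other genes. BMP15, the partner of GDF9 and known for its effects on litter size in sheep, had 96.4 to 306 FPKM in rich samples (median 180) and 67.6 to 216 in poor samples (median 109). BMP15 had a log2 fold change of 0.56 ± 0.24 (SE; adjusted p = 0.846, limma), and 9 of 10 rich samples exceeded the poor median. BMP6 of the same family had 0.688 to 4.99 FPKM (median 1.51) against 0.351 to 2.72 (median 0.884), with an adjusted p of 0.846. BNC1, a zinc finger protein of germ cells, had 12.4 to 35.2 FPKM (median 17.3) against 6.08 to 23.9 (median 9.93). All 10 rich samples exceeded the poor median of BNC1, and its log2 fold change was 0.73 ± 0.23 (SE; adjusted p = 0.691, limma). OOEP of the subcortical maternal complex, by contrast, had 6.24 to 153 FPKM (median 91.4) against 7.86 to 227 (median 124), a log2 fold change of -1.14, and -0.07 without the 8 samples.

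Among the other lists, 1 of 34 meiotic genes was higher at an unadjusted p under 0.05, BUB1 of the spindle checkpoint (log2 fold change 0.40). Of 52 genes of maternal mRNA storage and decay the one was YTHDF3, a reader of methylated adenosine (0.39), and of 19 oocyte transcription factor and germ cell genes there was 0. ASNS, the asparagine synthetase gene induced by the integrated stress response, had 1.77 to 4.90 FPKM in rich samples (median 3.04) and 0.274 to 2.98 in poor samples (median 1.63). It was the one of 11 genes of that list, with a log2 fold change of 0.69 ± 0.21 (SE; adjusted p = 0.691, limma). Of 15 apoptosis regulators AIFM1, a flavoprotein of the mitochondrial intermembrane space, was higher (0.44) and BCL2A1 lower (-0.50). BCL2A1 passed the filter on low values through the poor samples, so its values are a description. It was higher in every one of the 8 samples than in every other sample, and its log2 fold change was -0.10 without them. Of 23 antioxidant genes 5 were above 0, and GLRX, a glutaredoxin, was lower, with 26.3 to 408 FPKM in rich samples (median 80.5) and 63.1 to 728 in poor samples (median 236). The log2 fold change of GLRX was -1.08 ± 0.50 (SE; adjusted p = 0.846, limma), and -0.09 without the 8 samples. Over all 18 lists, 17 members were higher and 14 lower at an unadjusted p under 0.05 among 635 tested, near the 3.38% and 2.46% of all genes, and 0 passed the adjusted threshold.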

How the data were processed

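The 29 samples were RNA-seq libraries of oocytes, described by 1 table of FPKM values. Per the study's methods, the authors kept uniquely matching reads with few mismatches, removed duplicates with Picard and estimated the deposited FPKM values with Cufflinks on an Ensembl annotation. The aligner and the genome build are not given in the sources used here, and no coordinates or sequences are printed. The table held 21343 genes, of which 3738 shared a symbol with another row, and 1 further column of values that matched no labelled sample was not used. Low FPKM values of sample pairs were searched for steps of whole reads and showed none. The depth of the samples, and the precision it would give, could thus not be read from them. The sequence counts and mapping information listed in the study's supplement were not used.

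Samples were ranked by the share of summed FPKM in the 13 mitochondrial protein genes, found by symbol among the first 60 rows, and these genes were left out of all tests. The 10 highest and 10 lowest samples were compared over genes with more than 0.5 FPKM in at least 4 of the 20, on log2(FPKM + 1), with limma 3.58.1 (moderated test with trend, R 4.3.3) and Benjamini-Hochberg adjustment at 0.05. A positive log2 fold change means higher in rich samples. Ratios and fold differences of medians were computed from the deposited FPKM. The difference between fertility populations was an interaction term in the same model, and whole-library measures were compared by permutation tests (100000 resamples, two-sided, SciPy 1.17.1). The scripts were tested on simulated data. The samples, gene lists and tests were chosen with earlier results of these data known.

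The genes named were up to 10 per direction with a single row, a symbol and the smallest p among those beyond 1 on the log2 scale, up to 2 per direction from each of 18 gene lists, and markers. Some genes that the rule names are not reported here. Genes outside this rule are marked as named after their values were seen. Alternatives were the pseudocount (0.1, 0.5), the limit on FPKM, scaling, array weights, covariates, a replicate block, the ranking and size of the sets, an exact Wilcoxon test and leaving out each sample.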

Additional observations from a re-analysis of the deposited data

Results flagged for a closer look

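In 36 groups of 4 to 10 samples tested for a value far from the others, 6 values stood apart. Chance alone flags about 1 in 20 groups that were not chosen by their values. Some groups here were of genes named after their values were seen, or of the share that chose the sets. The rate therefore does not apply to them, and the flagged values are a description. HLO 1 had the highest mitochondrial share of the HLO samples, 0.389%. In LMO 3 the 100 highest genes held 62.5% of FPKM, the highest value of the LMO samples. LLO 1 had 26.6 FPKM of ENSCHIG00000017581, the highest value of the poor samples. HSO 3 had 25.0 FPKM of GRIA1, the highest value of the rich samples. LSO 4 had the highest FABP1 and HSD17B2 values of the rich samples, 1.14 and 18 FPKM.

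The difference between rich and poor samples in GRIA1 differed between the fertility populations by 2.79 on the log2 scale (high minus low fertility), by the interaction term in limma with an adjusted p of 0.00823. The model had no term for follicle size, so population cannot be told apart from follicle size here. All 3 rich samples of high fertility were above all 6 poor samples of high fertility.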

How the results depend on the processing

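The count of 0 genes at an adjusted p under 0.05 in limma (316 higher and 230 lower unadjusted, 0 by the Wilcoxon test) held under most alternatives. It became 3 higher genes in high fertility samples alone, 2 with the 9 highest samples against the other 20, and 0 to 2 higher and 0 lower with each sample left out (2 without LMO 1, 1 without LLO 1). The unadjusted count of higher genes was 487 with no filter, 849 with array weights, 489 with the replicate block, 195 when ranked by the summed FPKM, 120 for 14 against 15 samples, 197 and 132 in high and low fertility samples alone, 158 for 9 against 20, and 126 with HSD17B2 as a covariate, and ran from 237 to 399 with each sample left out. The unadjusted count of lower genes was 385 with no filter, 388 with median-of-ratios factors, 462 with array weights, 621 with follicle size and fertility as covariates, 124 with the replicate block, 863 as a slope on the share, 104 in low fertility samples alone, 431 with the share of the 100 highest genes as a covariate, 83 for 9 against 20, 133 by the Wilcoxon test, 48 without the 8 samples with HSD17B2 over 1 FPKM and 45 with HSD17B2 as a covariate. With each sample left out it ran from 115 (without HMO 1) to 440 (without LSO 4 or LLO 3), and it was also over 1.5 times away from 230 without HLO 4 (432), HMO 5 (150), HSO 3 (140), LSO 1 (139), LMO 3 (135), LMO 2 (134) and LLO 4 (124). The causes were not tested.

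The 97 named genes changed direction in 38 of 3677 alternative values. The sources do not say that samples of different groups with the same number belong together. The correlation of their deviations from the group means ran from -0.578 to 0.749 over 70 pairs (median 0.480, 55 over 0.1). For other pairs the median was -0.174. Deviations cancel out within a group, so positive same-number values pull that median down and it is no separate baseline. Among samples of other groups, the closest one carried the same number for 20 of 29 samples. The replicate block gave 0 genes at an adjusted p under 0.05. The interaction kept 1 gene with each sample left out, and the difference in genes detected ran from -169.1 to 49.8. The 9 against 20 division, the HSD17B2 fits and the covariate of the 100 highest genes were added after seeing the data. Depth was not taken into account here, so what it limits could not be stated.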
